A study of Mus with 6 samples.

Results

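The genes described here encode the enzymes that write and remove DNA methylation and some of the proteins that read it, measured as mRNA in the mouse hippocampus after forced swim stress (FSS). They were a set of 9 genes (Dnmt1, Uhrf1, Dnmt3a, Dnmt3b, Tet1, Tet2, Tet3, Mbd1 and Mbd2), and all 9 were found on the array among 19938 gene symbols. A gene was taken from the array rows that carry exactly 1 gene symbol, and where a gene had several rows, that with the highest mean was used. The 9 genes had 12 such rows among 21789, because Tet1 had 3 rows and Tet3 had 2.

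In mammals, methyl groups are placed mainly on cytosines of CpG dinucleotides by the DNA methyltransferases. Dnmt3a and Dnmt3b can methylate sites that carried no mark, and Dnmt1, brought by Uhrf1 to newly copied DNA, keeps the marks through cell division. The TET dioxygenases Tet1, Tet2 and Tet3 oxidise 5-methylcytosine to 5-hydroxymethylcytosine, which is abundant in the brain, and base excision repair can then restore an unmodified cytosine. Mbd1 and Mbd2 bind methylated CpGs and recruit proteins that repress transcription.

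Hippocampal RNA came from 3 control and 3 FSS mice, with 1 mouse on each array. All were male C57BL/6JJmsSlc (B6) mice, given as 10 to 11 weeks old, and carried no engineered allele according to the labels. FSS mice swam for 11 min per day on 5 consecutive days in water of 25 °C that was 25 cm deep, whereas control mice were not loaded with FSS. By the schedule of the study, the tail suspension test was on Day 6 and the tissue was taken on Day 8, so the levels are those of some days after the last swim. The samples were whole hippocampal tissue, in which fewer cells of a type and less RNA per cell cannot be told apart. The arrays measured mRNA, and neither methylated DNA nor enzyme activity was measured. By the study's methods, not all mice put on arrays in the FSS experiment entered its volcano plot, and those used were drawn at random. The values used here hold 3 mice in each group.

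Levels are log2 values made by robust multi-array averaging (RMA), so a difference of 1 is a doubling of signal. They rank mice for 1 row, and levels of different genes are not compared because probes differ in how strongly they bind. Of 12 markers of hippocampal neurons, 11 lay above the median level of all rows, and the remaining marker lay at percentile 47.2. The medians of the 6 arrays were 7.32 to 7.35, and every pair of arrays correlated across rows with Pearson's r between 0.9968 and 0.9978. The SD of all values on an array ranged from 2.22 to 2.27. The number of arrays limits the precision.

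None of the 9 genes differed between FSS and control mice at an unadjusted p under 0.05 from limma, a linear model for each row whose variance is shrunk towards that of the other rows. That threshold was passed by 5.14% of all rows, 2.49% with a higher and 2.66% with a lower mean in FSS mice. At the thresholds used in the study, a log2 fold change over 0.5 in size with an unadjusted p under 0.05, 0 of the 9 genes and 0.0688% of all rows were called. The Benjamini-Hochberg adjusted p of the 9 genes from limma ranged from 0.945 to 0.9998, and in all rows 0 passed an adjusted p of 0.05, while 1121 had an unadjusted p under 0.05. The log2 fold changes of the 9 genes lay between -0.14 (Tet2) and 0.047 (Mbd2), with a median of -0.0018 against 0.0049 over all rows. A difference of this kind can be missed with 3 mice in each group, so the 95% interval of each difference is given. All 9 intervals lay within 0.5 of 0, and the end farthest from 0 was -0.35, for Tet2.

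**Figure D1:**
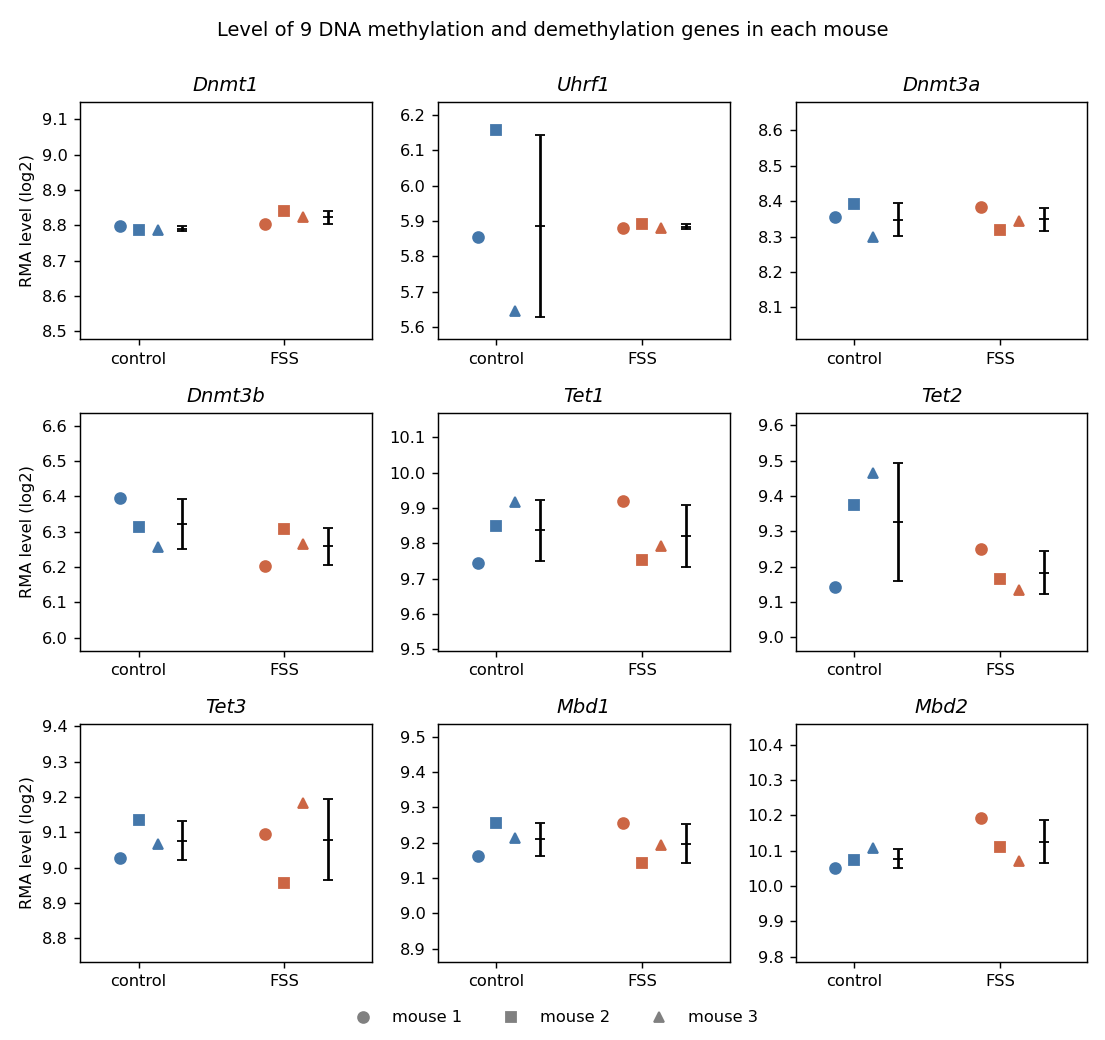
RMA level (log2, y axis) of the 9 genes in each control mouse (blue) and FSS mouse (orange), with the mouse number as the marker shape and the mean ± SD of 3 mice beside it in black. Every panel spans the same number of log2 units; the groups share part of their range in 8 panels, and in that of Dnmt1 the FSS mice lie just above the control mice.

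Dnmt1 is the maintenance methyltransferase and is also present in neurons that no longer divide. Its levels were 8.798, 8.787 and 8.786 in control mice 1 to 3 and 8.805, 8.841 and 8.823 in FSS mice 1 to 3. The 3 FSS mice were all higher than the 3 control mice. Groups without overlap were found for 1 of the 9 genes and for 10.3% of all rows, with the FSS mice on top in 6.02% and below in 4.25%. The distance between the groups was small, since the log2 fold change was 0.032 (standard error 0.039, 95% interval -0.059 to 0.12, limma adjusted p = 0.972). On the linear scale this is a fold of 1.02, with an interval from 0.96 to 1.09. An exact two-sided permutation test gave p = 0.1, and no smaller value is possible with 3 mice in each group. When the variance of Dnmt1 alone was used, as in the methods' t-test, Dnmt1 passed an unadjusted threshold of 0.05 and did not pass after Benjamini-Hochberg adjustment. By that test, 5% of all rows passed the unadjusted threshold. The SD was 0.0066 in control mice, the lowest of any of the 9 genes within that group, and 0.018 in FSS mice.

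Uhrf1 binds hemimethylated DNA and recruits Dnmt1 to it. Its levels were 5.85, 6.16 and 5.65 in control mice 1 to 3 and 5.88, 5.89 and 5.88 in FSS mice 1 to 3. The FSS mice lay close together and between the control mice. The SD was 0.26 in control mice and 0.0072 in FSS mice (n = 3 each), and this difference in spread was not tested. The log2 fold change was -0.0018, with the widest standard error of the 9 genes, 0.12, and a 95% interval from -0.29 to 0.28. Its sign rested on single mice, as leaving out control mouse 2 gave 0.13 and leaving out control mouse 3 gave -0.12, and it also turned when the arrays were brought to 1 distribution or scaled (0.018 with quantile normalization and 0.019 with median and MAD scaling). The row was dim, at percentile 21.5 of all rows and above only 90.2% of the 1205 rows of olfactory and vomeronasal receptor genes.

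Since Uhrf1 had the widest range over the 6 arrays, 0.51, the rows most like it were sought by the root mean square difference between levels centred on their own mean. The nearest were Olfr1164 (difference 0.018), Cltrn (0.026) and Rgs21 (0.034), over the 6 arrays. For Olfr1164, an olfactory receptor gene, control mice had levels of 4.77, 5.07 and 4.54 and FSS mice had levels of 4.81, 4.79 and 4.83. As for Uhrf1, control mouse 2 was the highest and control mouse 3 the lowest. These rows were picked from 21789 for their likeness over 6 arrays, and no test belongs to it.

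Dnmt3a is the main de novo methyltransferase of the adult brain. Its levels were 8.35, 8.39 and 8.30 in control mice 1 to 3 and 8.38, 8.32 and 8.34 in FSS mice 1 to 3. The FSS mice all fell inside the range of the control mice. The difference as a log2 fold change was 0.00018 (standard error 0.045, 95% interval -0.11 to 0.11, limma adjusted p = 0.9998), and its sign turned with quantile normalization (-0.012) and with median and MAD scaling (-0.012). Among the rows with exactly 1 symbol, 1 was for Dnmt3a, so its long and short isoforms were not told apart.

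Dnmt3b, the other de novo enzyme, is best known from the early embryo. Its levels were 6.40, 6.31 and 6.26 in control mice 1 to 3 and 6.20, 6.31 and 6.26 in FSS mice 1 to 3. FSS mouse 1 was the lowest and control mouse 1 the highest, with the other 4 mice between 6.26 and 6.31. FSS minus control gave a log2 fold change of -0.063 (standard error 0.054, 95% interval -0.19 to 0.065, limma adjusted p = 0.968), and it ranged from -0.096 (without control mouse 3) to -0.026 (without control mouse 1). Its row lay at percentile 28.1 of all rows, and with Uhrf1 it was 1 of the 2 genes below the median level.

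**Figure D2:**
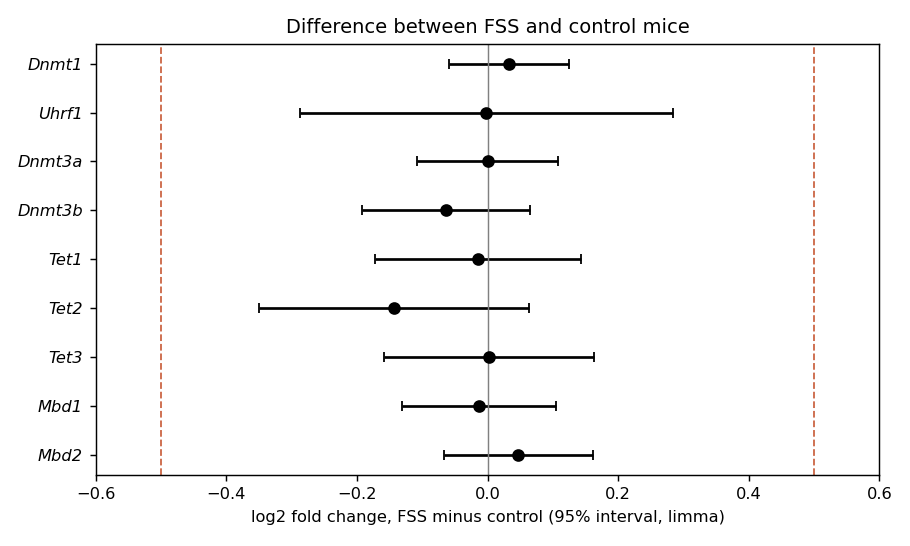
Differences between FSS and control mice as log2 fold changes (x axis) for the 9 genes (y axis). Points are limma estimates from 3 mice in each group, bars are 95% intervals and the dashed lines mark a log2 fold change of 0.5 in either direction; every bar crosses 0 and none reaches a dashed line.

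Of the 3 TET genes, Tet2 showed the largest difference of the 9 genes. Tet2 lacks the DNA-binding CXXC domain that Tet1 and some forms of Tet3 carry. Its levels were 9.14, 9.37 and 9.46 in control mice 1 to 3 and 9.25, 9.17 and 9.13 in FSS mice 1 to 3. Control mice 2 and 3 lay above all FSS mice, whereas control mouse 1 lay below FSS mice 1 and 2. The log2 fold change was -0.14 (standard error 0.087, 95% interval -0.35 to 0.063, limma unadjusted p = 0.143, adjusted p = 0.945), which is a fold of 0.905 with an interval from 0.785 to 1.04. Of all rows, 89.9% had a smaller log2 fold change in size. Leaving out control mouse 1 gave a log2 fold change of -0.24, which passed the unadjusted threshold (limma adjusted p = 0.84), as did 5.54% of all rows. Leaving out control mouse 3 gave -0.075. The lower mean in FSS mice was found without each mouse in turn, from -0.24 to -0.075.

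Tet1 starts the oxidation of 5-methylcytosine and has been studied in hippocampal memory. In the row used here, its levels were 9.74, 9.85 and 9.92 in control mice 1 to 3 and 9.92, 9.75 and 9.79 in FSS mice 1 to 3. FSS mouse 1 and control mouse 3 were the highest, at nearly the same level. This gave a log2 fold change of -0.015 (standard error 0.066, 95% interval -0.17 to 0.14, limma adjusted p = 0.994). The further rows of Tet1 gave log2 fold changes of 0.0023 (95% interval -0.12 to 0.13) and -0.034 (95% interval -0.15 to 0.087). In all 3 rows the order of the control mice was the same, with mouse 1 the lowest and mouse 3 the highest, and FSS mouse 1 was the highest FSS mouse.

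Tet3 is the TET enzyme with a known part in demethylation after fertilisation, and it is also expressed in neurons. Its levels were 9.03, 9.14 and 9.07 in control mice 1 to 3 and 9.10, 8.96 and 9.18 in FSS mice 1 to 3. The FSS mice held both the highest and the lowest value. Its log2 fold change was 0.0025 (standard error 0.068, 95% interval -0.16 to 0.16, limma adjusted p = 0.999) and turned negative with quantile normalization (-0.012) and with median and MAD scaling (-0.021). In its second row the levels were 8.95, 8.88 and 8.92 in control mice and 9.02, 8.93 and 8.86 in FSS mice, a log2 fold change of 0.022 (95% interval -0.11 to 0.15). FSS mouse 3 was the highest of the 6 mice in the first row and the lowest in the second, so the rows of Tet3 ranked the mice differently although neither differed between the groups at an unadjusted p under 0.05.

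**Figure D3:**
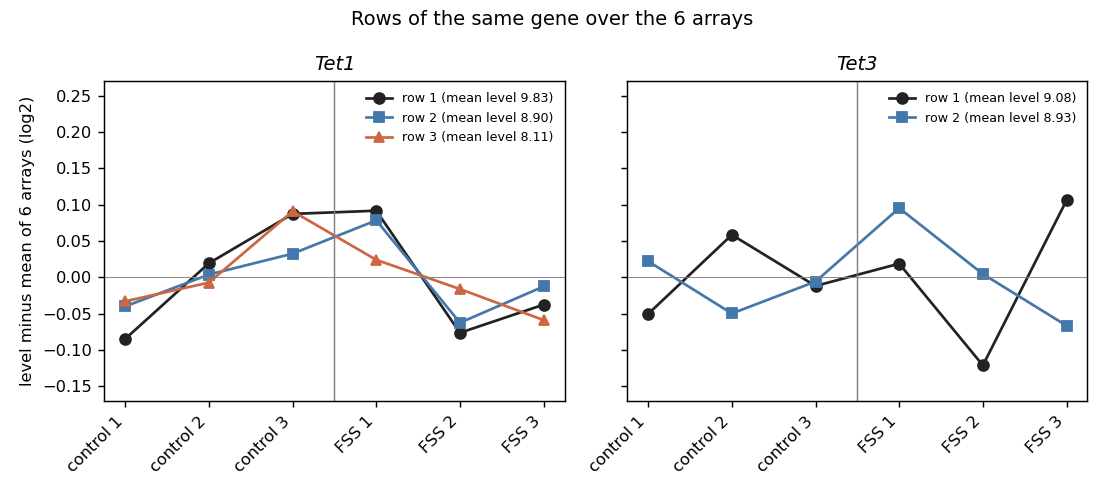
Level minus the mean of the 6 arrays (log2, y axis) in each mouse (x axis), with 1 line for each of the 3 rows of Tet1 (left) and the 2 rows of Tet3 (right). The lines of Tet1 keep 1 order over the control mice. Row 3 of Tet1 lies apart from the other rows in FSS mice 1 and 2 (8.14 and 8.10). Its lowest value is in FSS mouse 3 (8.05). The lines of Tet3 lie farthest apart in FSS mouse 3, which has the highest value in row 1 (9.18) and the lowest in row 2 (8.86).

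The mRNA levels of the 2 methyl-CpG binding proteins also lay close to control. Mbd1, which can bind through both a methyl-CpG binding domain and CXXC domains, had levels of 9.16, 9.25 and 9.21 in control mice 1 to 3 and 9.26, 9.14 and 9.19 in FSS mice 1 to 3. The ranges of the groups covered each other almost fully. For Mbd1 the log2 fold change was -0.013 (standard error 0.050, 95% interval -0.13 to 0.11, limma adjusted p = 0.993). Mbd2, a subunit of a nucleosome remodelling and deacetylase complex, had levels of 10.051, 10.075 and 10.107 in control mice 1 to 3 and 10.192, 10.111 and 10.072 in FSS mice 1 to 3. FSS mice 1 and 2 lay above the control mice, the latter barely, and FSS mouse 3 lay within their range. The log2 fold change of Mbd2 was 0.047 (standard error 0.048, 95% interval -0.067 to 0.16, limma adjusted p = 0.971), and it stayed between 0.014 (without FSS mouse 1) and 0.074 (without FSS mouse 3).

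The signs of the 9 differences were mixed. With all mice, 4 genes had a higher and 5 a lower mean in FSS mice, and these counts were 3 and 6 with quantile normalization or with median and MAD scaling, and 6 and 3 with array weights. Leaving out each mouse gave from 3 to 6 genes with a higher mean. Dnmt1 and Mbd2 had a higher mean, and Dnmt3b and Tet2 a lower mean, without each mouse in turn and with both scalings. None of these 4 passed the unadjusted threshold in limma with all mice.

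**Figure D4:**
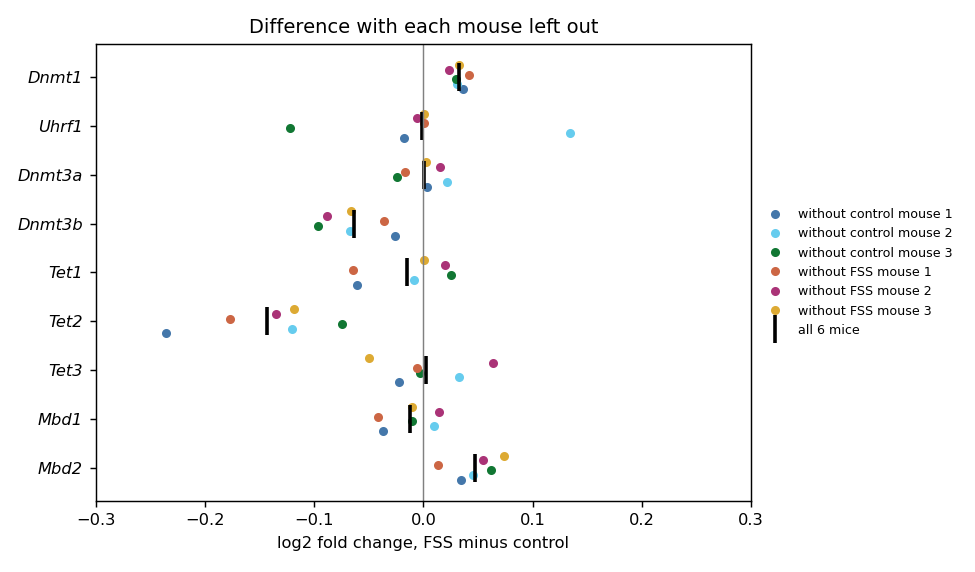
Sensitivity of the log2 fold change (x axis, FSS minus control) of the 9 genes (y axis) to single mice, with all 6 mice (black bar) and without each mouse in turn (coloured points). The points of Tet2 range from -0.24 to -0.075 and those of Uhrf1 from -0.12 to 0.13.

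Whether related members moved unequally was asked with 3 ratios, each taken within an array as a difference of 2 log2 levels. The Dnmt3a to Dnmt3b log2 ratio was 2.09 ± 0.085 in FSS mice and 2.03 ± 0.061 in control mice (SD, n = 3 each), a difference of 0.063 (exact two-sided permutation test, p = 0.4). This difference was 0.019 without FSS mouse 1, 0.030 without control mouse 1 and 0.10 without FSS mouse 2. The Tet1 to Tet3 log2 ratio was 0.743 ± 0.12 in FSS mice and 0.760 ± 0.078 in control mice (SD, n = 3 each; exact two-sided permutation test, p = 0.9). The Dnmt1 to Uhrf1 log2 ratio was 2.94 ± 0.013 in FSS mice and 2.90 ± 0.26 in control mice (SD, n = 3 each; exact two-sided permutation test, p = 0.9), with the control spread coming from Uhrf1. Adjusted over the 3 ratios by the Benjamini-Hochberg method, each of these exact tests gave p = 0.9. The size of a ratio also reflects the probes, so only its difference between groups is read. No p under 0.1 is possible with 3 mice against 3.

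Other genes of the pathway were taken from 5 lists by role. Of 69 genes listed, 60 had a row with exactly 1 symbol, and the others were not analysed here. Among these, 1 was higher and 1 was lower in FSS mice at an unadjusted p under 0.05, which is 3.33% of them against 5.14% of all rows, and 58 did not pass. At the thresholds used in the study 0 of the 60 were called. Their median log2 fold change was 0.0035, with 33 above 0 and 27 below, against 0.0049 over all rows.

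The higher gene was Apex1, the endonuclease that cuts DNA at abasic sites during base excision repair. Its levels were 9.23, 9.28 and 9.21 in control mice 1 to 3 and 9.36, 9.40 and 9.50 in FSS mice 1 to 3. All FSS mice lay above the control mice, as was found for 6.02% of all rows. The log2 fold change of Apex1 was 0.18 (standard error 0.052, 95% interval 0.056 to 0.30, limma unadjusted p = 0.0109, adjusted p = 0.943). It was 0.14 to 0.21 without each mouse and passed the unadjusted threshold each time. The other 14 measured genes of base excision and deamination did not pass. These included Gadd45b (log2 fold change -0.088, 95% interval -0.24 to 0.065), a gene induced by neuronal activity that has been linked to demethylation and was named after its values were seen.

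The lower gene was Idh2, the mitochondrial isocitrate dehydrogenase, which makes 2-oxoglutarate, a substrate of the TET enzymes. Its levels were 9.47, 9.59 and 9.43 in control mice 1 to 3 and 9.35, 9.26 and 9.35 in FSS mice 1 to 3. All FSS mice lay below the control mice, as was found for 4.25% of all rows. The log2 fold change was -0.17 (standard error 0.059, 95% interval -0.31 to -0.032, limma unadjusted p = 0.0229, adjusted p = 0.943). It no longer passed the unadjusted threshold without control mouse 2 (-0.12), without FSS mouse 2 (-0.14) or with the replicate number as a block. The other 8 measured cofactors and partners of TET enzymes did not pass, and the cytosolic enzyme Idh1 had a log2 fold change of 0.097 (95% interval -0.075 to 0.27).

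In the remaining lists no gene passed. Of the 11 measured methyl-CpG readers and their partners, the histone deacetylase gene Hdac2 had the largest log2 fold change in size, 0.12 (95% interval -0.055 to 0.29), which ranged from 0.067 (without FSS mouse 3) to 0.18 (without FSS mouse 2) and passed the unadjusted threshold only in the latter. Of the 12 helpers and regulators of DNA methyltransferases, the largest was that of Dppa3, a factor of oocytes and early embryos, at 0.24 (95% interval -0.16 to 0.64), in a dim row at percentile 12.0 of all rows. For Dppa3 this was 0.093 to 0.38 without each mouse in turn, moving by over 1.5 times on leaving out FSS mouse 2 (0.093), FSS mouse 3 (0.37), control mouse 1 (0.38) or control mouse 3 (0.14), and with the mean of all its rows it was 0.060. With the array spread as a block it was 0.36 and passed the unadjusted threshold. Of the 13 measured genes of the methyl donor cycle, which makes the S-adenosylmethionine that methyltransferases use, it was that of the glycine methyltransferase gene Gnmt, at -0.11 (95% interval -0.25 to 0.038), and -0.056 without FSS mouse 2. The number of genes with a log2 fold change above 0 was 3 of 13 for the methyl donor cycle, 8 of 11 for readers, 8 of 12 for helpers, 10 of 15 for base excision and deamination and 4 of 9 for TET cofactors, against 53.0% of all rows.

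**Figure D5:**
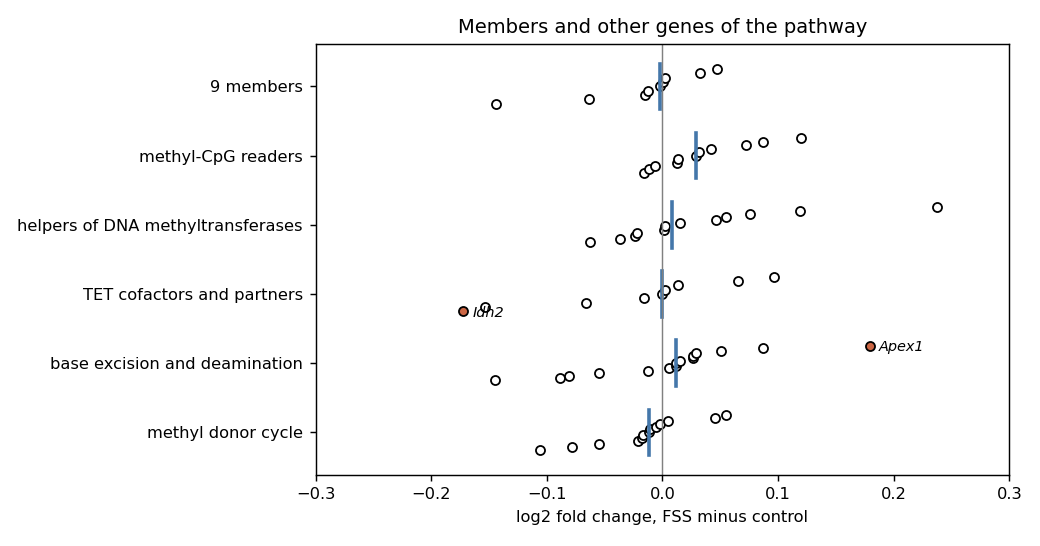
Log2 fold changes (x axis, FSS minus control) of the 9 genes and of 60 other genes of the pathway in 5 lists (y axis). Circles are genes, in orange at an unadjusted limma p under 0.05 and otherwise open, and blue lines are the medians; Apex1 (0.18) and Idh2 (-0.17) are the orange circles.

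Markers of dividing cells and of cell types in or near the hippocampus were read beside these values. Of 14 measured proliferation genes, Aurkb, a mitotic kinase, was higher at an unadjusted p under 0.05 (log2 fold change 0.16, limma adjusted p = 0.943) and none was lower. Their mean level was 6.44 to 6.53 in control mice and 6.53 in each FSS mouse, and 0 of the 14 rows lay above the median level of all rows. Against 5.14% of all rows, of 9 microglial genes 2 were higher and 0 lower, of 10 astrocytic genes 3 were higher and 3 lower, and of 9 oligodendrocyte genes 1 was higher and 0 lower. The mean level of the microglial genes was 8.58 to 8.71 in control mice and 8.73 to 8.79 in FSS mice. Among the marker lists, only the microglial one had means that did not overlap between the groups. In every other marker list they overlapped, as for astrocytes, with 10.35 to 10.42 in control mice and 10.37 to 10.41 in FSS mice. Single rows without overlap made up 10.3% of all rows, and the difference in list means was not tested. In endothelial, immature neuron and progenitor genes 0 of 9 passed in each list, and in the lists of hippocampal neurons (12 genes), choroid plexus (10) and meninges (10) 1 gene was higher in each. The part of these cell types in the levels of the 9 genes was not tested.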

How the data were processed

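Total RNA of the hippocampus from 3 control and 3 FSS mice was hybridised to Affymetrix GeneChip Mouse Gene ST arrays (1 colour, 1 mouse per array). The deposited values are log2 levels, which the authors made with the RMA algorithm in Affymetrix Expression Console, as the submitters' processing notes also name. RMA corrects background, quantile-normalizes the arrays and combines the probes of a row into 1 value, and it can compress differences in dim rows. The genome build was not given in the sources used here, so no coordinates are given. The array annotation paired 21789 of 28944 rows with 1 gene symbol, 1621 with several and 5534 with none. The 9 genes were matched by gene ID to RefSeq (GRCm38.p6). No sequences were used here.

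FSS was compared with control by limma 3.58.1 (lmFit and eBayes, no covariate) in R 4.3.3 over all 21789 rows, with Benjamini-Hochberg adjustment over all of them. The study's methods give thresholds for the arrays and state Student's or the Mann-Whitney test, chosen by equality of variances, for unpaired data in general. Groups were taken from the sample titles. The replicate numbers were not taken to pair the mice. Deviations of same-numbered mice from their group means correlated with r = -0.048, 0.14 and 0.24. Those of differently numbered mice correlated with r from -0.26 to 0.13. These values do not decide whether the mice were paired, so a fit with the replicate number as a block is also given. The fit was first tested on simulated data. The genes, lists and tests were chosen with earlier results of these data known. Named genes were the 9 genes, pathway genes at an unadjusted p under 0.05, the pathway gene with the largest change in each list, and the 3 rows most like the gene with the widest range. Gadd45b, Idh1 and Aurkb were named outside this rule. The alternatives were leaving out each mouse, the replicate block, other scalings, a filter on dim rows, other variance models, the methods' t-test, array weights, the spread of the arrays as a block and other rows of a gene.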

Additional observations from a re-analysis of the deposited data

How the results depend on the processing

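The 9 genes stayed at 0 calls at the thresholds used in the study in every alternative. At an unadjusted p under 0.05, 1 gene passed by the methods' t-test (Dnmt1), against 5% of all rows. After Benjamini-Hochberg adjustment 0 of the 9 genes did. Without each mouse in turn 0 to 1 passed (Tet2, without control mouse 1, where 5.54% of all rows passed). Pathway genes at that threshold numbered 1 to 3 in all without each mouse, 1 to 3 higher and 0 to 2 lower. From 3.71% to 7.6% of all rows passed in these fits. With the array spread as a block, 2 pathway genes were higher, and 5.92% of all rows passed in either direction. The median of the 9 genes was -0.022 to 0.022 without each mouse.
Differences near 0 turned in sign. With quantile normalization, Uhrf1 was at 0.018, Dnmt3a at -0.012, Tet3 at -0.012 and the Dnmt1 to Uhrf1 log2 ratio at -0.0015. With median and MAD scaling they were at 0.019, -0.012, -0.021 and -0.0049. With array weights, Tet1 was at 0.0091 and Mbd1 at 0.0022. With the array spread as a block, Uhrf1 was at 0.060 and Tet3 at -0.025. In the main fit, which had no block, the second row of Tet1, chosen after seeing the data, was at 0.0023. The causes were not tested.
Without each mouse in turn, the log2 fold change was -0.12 to 0.13 for Uhrf1, -0.025 to 0.022 for Dnmt3a, -0.064 to 0.025 for Tet1, -0.050 to 0.064 for Tet3 and -0.042 to 0.014 for Mbd1. The difference in log2 ratio was -0.10 to 0.15 for Dnmt1 to Uhrf1 and -0.058 to 0.050 for Tet1 to Tet3.
With the replicate number as a block, 0 of the 9 genes passed and 1494 of all rows had an unadjusted p under 0.05. Idh2, at -0.17, no longer passed the unadjusted threshold there. Without dim rows, Uhrf1 and Dnmt3b were left out. For Uhrf1 and Dnmt3b, the low signal may limit what can be seen, which was not tested.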
